A study of Citrullus lanatus with 26 samples.

Results

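The comparison described here sets the flesh of watermelon fruit at 10 DAP against flesh at 5 DAP, DAP being the unit of age that the labels use. All libraries come from 1 genotype, Citrullus lanatus subsp. vulgaris cv. 97103, a cultivated watermelon, and the labels state no treatment for either age. It rests on 6 of the 26 libraries of the series, namely the 3 titled SW (5 DAP) and the 3 titled BW (10 DAP), chosen by their titles and ages alone. They belong to a set of 18 libraries that follows this cultivar at 6 ages (0, 1, 5, 10, 20 and 30 DAP), and other libraries of the series, such as those titled C_BW, were not used here. Each library gives whole-number counts of small RNA reads for the same 208 miRNA names. The labels do not say how many fruits or plants a library holds or whether replicates are separate plants, and a p-value therefore speaks of the spread among libraries alone, part or all of which may be technical.

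Plant miRNAs are short RNAs cut from hairpin precursors by the enzyme DCL1 and loaded into ARGONAUTE proteins, which then cleave matching mRNAs or hold back their translation. Many of the conserved families act on transcription factors that set cell division, organ growth and the response to auxin, all of which are at work in young, enlarging fruit. Of the 208 names, 29 consist of a species code and the number of a known family, and these are called family names here. The prefix cme is the code for melon (Cucumis melo), cpa for papaya, mdm for apple, hbr for rubber tree and gma for soybean. The other 179 are numbered novel_miR names, to which the tables attach no function.

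The listed totals were 135621, 153755 and 139286 counts at 5 DAP and 133390, 114407 and 123061 counts at 10 DAP, in the order of replicates 1, 2 and 3. Levels are given as scaled CPM, for which a library's total of tested names was first multiplied by its trimmed-mean (TMM) factor, and 1 count is worth 6.64 to 7.94 scaled CPM in these libraries. The factors were 0.928, 0.916 and 0.959 at 5 DAP and 0.997, 1.31 and 1.22 at 10 DAP. A larger factor lowers all levels of its library, so overlap between ages in scaled CPM depends on the factors too. The labelled tissue could not be checked, because no miRNA marker of flesh was used. In bulk flesh, fewer cells of a type and less RNA per cell cannot be told apart.

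The 3 libraries at 10 DAP were less alike than the 3 at 5 DAP. A chi-square statistic of their counts per degree of freedom was 43.2 between replicates 1 and 2, 24.3 between 1 and 3 and 9.07 between 2 and 3, against 5.94 to 9.47 between the libraries at 5 DAP. Replicate 1 of 10 DAP had the highest level of the 3 for 19 of 25 tested family names, and replicate 2 had the lowest for 18. Family names took 33.0%, 32.5% and 30.7% of the listed counts at 5 DAP and 31.0%, 22.3% and 24.9% at 10 DAP, with 95% Wilson intervals of at most 0.25 percentage points to either side. The means were 32.0% ± 1.17 and 26.1% ± 4.46 (SD, n = 3 each), a change of -5.94 percentage points. A two-sided exact permutation test gave p = 0.2. Its smallest possible p for 3 against 3 is 0.1, so it cannot by itself decide whether the share changed. Replicate 1 of 10 DAP lay within the range of the 5 DAP libraries, and replicates 2 and 3 lay below it. This overlap depends on how names with equal counts are treated. With such names added up only once, the shares were 35.4%, 34.6% and 33.1% at 5 DAP. At 10 DAP they were then 32.5%, 23.1% and 26.1%, all below those at 5 DAP (exact permutation p = 0.1).

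By edgeR's quasi-likelihood test, 79 of 204 tested names differed between 10 and 5 DAP (38.7%), where a call means a Benjamini-Hochberg adjusted p under 0.05. Of all names tested, 23 were called higher at 10 DAP (11.3%) and 56 lower (27.5%). The falls were also the larger changes. On the log2 scale the falls had a median of -1.07 and reached -5.54, and 29 of them went past 1, while the rises had a median of 0.64 and reached 2.02, with 6 past 1. The number of rises and falls depends on how libraries are scaled. Without scaling factors the median change of all names moved from -0.07 to 0.25, and the calls split into 64 higher and 34 lower. Adding up names with the same counts only once gave 36 and 33, fitting these 6 libraries alone gave 37 and 42, and the total fell to 48 without replicate 2 of 5 DAP and to 49 without replicate 2 of 10 DAP. Without replicate 1 of 10 DAP there were 79 calls again, 24 higher and 55 lower. Of the 79 names, 31 were called in the same direction in each of the 15 alternatives that tested them, 8 higher and 23 lower. The 23 include sets of names with equal or nearly equal counts, such as novel_miR_14 and novel_miR_60, which are not separate findings.

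**Figure D1:**
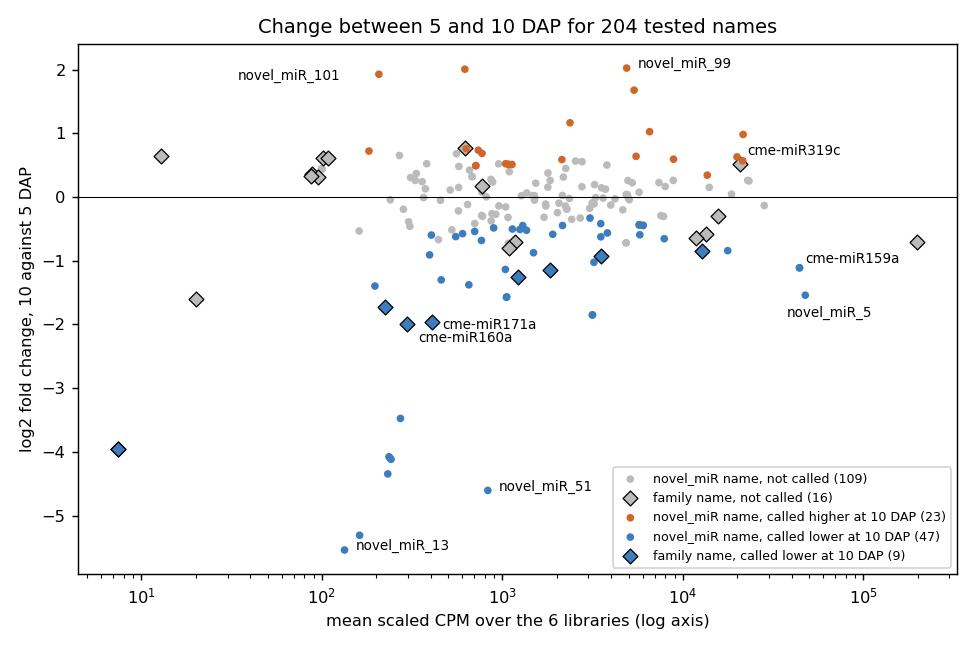
Each point is 1 of 204 tested names, with its mean scaled CPM over the 6 libraries on the x axis (log) and its log2 fold change between 10 and 5 DAP on the y axis. Diamonds are family names, circles novel_miR names, and colours mark calls by edgeR. The deep falls below -3 are novel_miR names and cme-miR171c and mdm-miR171h, which had 6 counts each at 5 DAP, and no family name is called higher.

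Family names fell or were not called. Of 25 tested, 9 were called lower and none higher by edgeR, beside 27.5% of all names called lower and 11.3% called higher. The 9 include cme-miR171c and mdm-miR171h, which have equal counts in these 6 libraries and passed the filter only through libraries of other ages. Without scaling factors 4 of the 25 were called higher and 9 lower, and without replicate 2 of 5 DAP 3 were called lower and none higher. Of those called higher without scaling factors, cme-miR156d and cme-miR156j have nearly the same counts. The median of the 25 was -0.70 on the log2 scale, beside -0.07 for all names. In 14 of them all 3 libraries at 10 DAP lay below all 3 at 5 DAP in scaled CPM, and in 1 all lay above. Over all 204 tested names this held for 65 below and 42 above, and the 2 directions together make 52.5%.

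The clearest falls were in miR160 and miR171. The miR160 family cuts the mRNAs of auxin response factors, and cme-miR160a stood at 326, 454 and 636 scaled CPM at 5 DAP and at 196, 107 and 59.8 at 10 DAP. All 10 DAP libraries lay below all 5 DAP libraries, and the name fell by 1.99 on the log2 scale (SE 0.46, adjusted p = 0.00281). cme-miR160c went from 278, 369 and 374 scaled CPM to 203, 66.6 and 46.5, a log2 change of -1.72 (SE 0.45, adjusted p = 0.00663). Replicate 1 of 10 DAP was the nearest to the 5 DAP libraries for both names, and without it the changes were -2.49 and -2.57.

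In the miR171 family, which cuts the mRNAs of GRAS transcription factors that maintain meristems, cme-miR171a was the abundant name. It stood at 596, 717 and 621 scaled CPM at 5 DAP and at 263, 127 and 113 at 10 DAP, a fall of 1.96 on the log2 scale (SE 0.41, adjusted p = 0.00154). cme-miR171c and mdm-miR171h each had 2, 3 and 1 counts in the 5 DAP libraries and none in the 10 DAP libraries. When the 3 libraries at 10 DAP together are credited with 3 counts, the ratio of scaled counts is 2.17. This ratio takes the 6 counts at 5 DAP as exact and is not a lower bound. Both names were called, though not without replicate 2 of 5 DAP (adjusted p = 0.0709 and 0.0706). cme-miR171d had 8, 3 and 1 counts and then 2, 1 and 1, and it was not called (adjusted p = 0.0985). cme-miR160a, cme-miR160c and cme-miR171a were called lower in every alternative, and they are the 3 family names among the 31.

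cme-miR172b and cme-miR164c fell as well. The miR172 family acts on AP2-like transcription factors that time flowering and shape floral organs, and cme-miR172b stood at 1724, 2009 and 1437 scaled CPM at 5 DAP and 970, 553 and 638 at 10 DAP. Its log2 change was -1.26 (SE 0.31, adjusted p = 0.00458). The miR164 family acts on NAC transcription factors that draw organ boundaries, and cme-miR164c went from 2613, 2697 and 2216 to 1624, 839 and 963 scaled CPM, a change of -1.14 (SE 0.30, adjusted p = 0.00811). The ages did not overlap for either name. Each lost its call in 1 alternative, the fit without replicate 2 of 5 DAP, with adjusted p-values of 0.0524 and 0.0605.

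Smaller falls were called in cme-miR166b and cme-miR159b. The miR166 family acts on class III HD-ZIP transcription factors, which set organ polarity and vascular development. cme-miR166b stood at 19421, 15685 and 14449 scaled CPM at 5 DAP and 12633, 6571 and 8243 at 10 DAP, with no overlap and a log2 change of -0.85 (SE 0.25, adjusted p = 0.0158). It was not called without replicate 1 or 2 of 5 DAP or without replicate 2 or 3 of 10 DAP (highest adjusted p = 0.129). The miR159 family acts on GAMYB-type transcription factors. cme-miR159b changed by -0.92 (SE 0.30, adjusted p = 0.0226), and it lost its call in 7 alternatives, among them the fits without any 1 library at 5 DAP and without replicate 2 or 3 of 10 DAP.

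cme-miR159a was the most abundant name in all 6 libraries. It took 23.5%, 23.5% and 22.3% of the listed counts at 5 DAP and 21.0%, 14.3% and 16.7% at 10 DAP. Every share at 10 DAP was below every share at 5 DAP, and the exact permutation p was 0.1, the smallest that 3 against 3 libraries can give. In scaled CPM the change was -0.70 on the log2 scale (SE 0.31, adjusted p = 0.0786), which was not called. Without replicate 1 of 10 DAP it was -1.01 and was called (adjusted p = 0.0198).

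The miR319 names, whose family acts on TCP transcription factors that limit cell division in growing organs, had changes on both sides of 0. cme-miR319c stood at 18635, 18056 and 14359 scaled CPM at 5 DAP and 32110, 20493 and 20591 at 10 DAP, while cme-miR319a stood at 17443, 15948 and 14898 and then 13761, 9355 and 9233. Neither was called, with log2 changes of 0.52 (SE 0.27, adjusted p = 0.134) and -0.58 (SE 0.24, adjusted p = 0.0660), and neither was cme-miR319b at -0.64 (SE 0.26, adjusted p = 0.0577). The ages did not overlap for any of the 3 names, and each was called in some alternatives. cme-miR319c was called higher without scaling factors (0.82) and in the 6 libraries alone (0.65), but stood at 0.27 without replicate 1 of 10 DAP and was not called. cme-miR319a and cme-miR319b were called lower in the 6 libraries alone (-0.45 and -0.51) and without replicate 1 of 10 DAP (-0.79 and -0.88). Their ratio within a library does not depend on scaling factors. There were 1.07, 1.13 and 0.96 counts of cme-miR319c for each count of cme-miR319a at 5 DAP and 2.33, 2.19 and 2.23 at 10 DAP. The ratio of cme-miR319c to cme-miR319b went from a mean of 1.17 ± 0.0997 to 2.62 ± 0.0419 (SD, n = 3 each), whereas that of cme-miR319a to cme-miR319b was 1.11 ± 0.0237 and 1.16 ± 0.0455. The first 2 ratios gave an exact permutation p of 0.1 each, the smallest possible, and the third 0.2. These ratios were chosen after the levels were known. A ratio shows unequal change and not which member changed.

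Ratios were also taken within miR159 and miR160, and these were less separated. None was taken within miR167 or the other families with several names. cme-miR159a had 52.4, 50.2 and 60.6 counts for each count of cme-miR159b at 5 DAP and 63.5, 57.4 and 66.7 at 10 DAP, which overlap (exact permutation p = 0.2). The ratio of cme-miR160a to cme-miR160c was 1.37 ± 0.290 and 1.28 ± 0.319 (exact permutation p = 0.8). The miR160 names together had 76, 116 and 135 counts at 5 DAP and 53, 26 and 16 at 10 DAP, too few to fix their ratio closely.

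The remaining tested family names were not called. The miR167 names, which act on another group of auxin response factors, had log2 changes of -0.71 (cme-miR167b, SE 0.38, adjusted p = 0.143) and -0.80 (cme-miR167c, SE 0.38, adjusted p = 0.0985), and all their 10 DAP libraries lay below the 5 DAP libraries. cme-miR167c was called lower in the 6 libraries alone (-0.67, adjusted p = 0.0368). The 5 tested miR156 names, which act on SPL transcription factors and keep tissue juvenile, had changes of 0.32 to 0.62 from 6 to 23 counts per library, and their ages overlapped. cme-miR156d and cme-miR156j were within 10% or 5 counts of each other in all 18 libraries, as were cme-miR156a and cpa-miR156b. Each pair may count the same reads. cme-miR162, whose family acts on the DCL1 mRNA, had a log2 difference of -0.29 (SE 0.22, adjusted p = 0.289). The log2 difference was 0.18 for cme-miR530b (SE 0.29, adjusted p = 0.634) and 0.64 for hbr-miR6485 (SE 1.06, adjusted p = 0.613), which had 0 to 6 counts per library. Of the 29 family names, 4 had too few counts to be tested. They were cme-miR156g, cme-miR171i and gma-miR5368, with no count in these 6 libraries, and cme-miR164b, with 4, 5 and 0 counts at 5 DAP and 0, 0 and 1 at 10 DAP.

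cme-miR2111a belongs to a family that phosphate starvation induces and that moves in the phloem. Its levels were 659, 355 and 367 scaled CPM at 5 DAP and 1151, 573 and 631 at 10 DAP, and the libraries overlapped. With a log2 change of 0.77 (SE 0.32, adjusted p = 0.0676) it was not called, but it was called higher in 7 alternatives, among them the fit without scaling factors (1.06) and the fit without replicate 1 of 5 DAP (1.23). Without replicate 1 of 10 DAP the change was 0.39 (adjusted p = 0.336). It is the 1 listed name of the phloem-mobile families used as markers of another tissue, so their summed level is that of this name, and names of miR395, miR398, miR399 and miR827 are not listed. The part of phloem in the other changes was not tested.

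**Figure D2:**
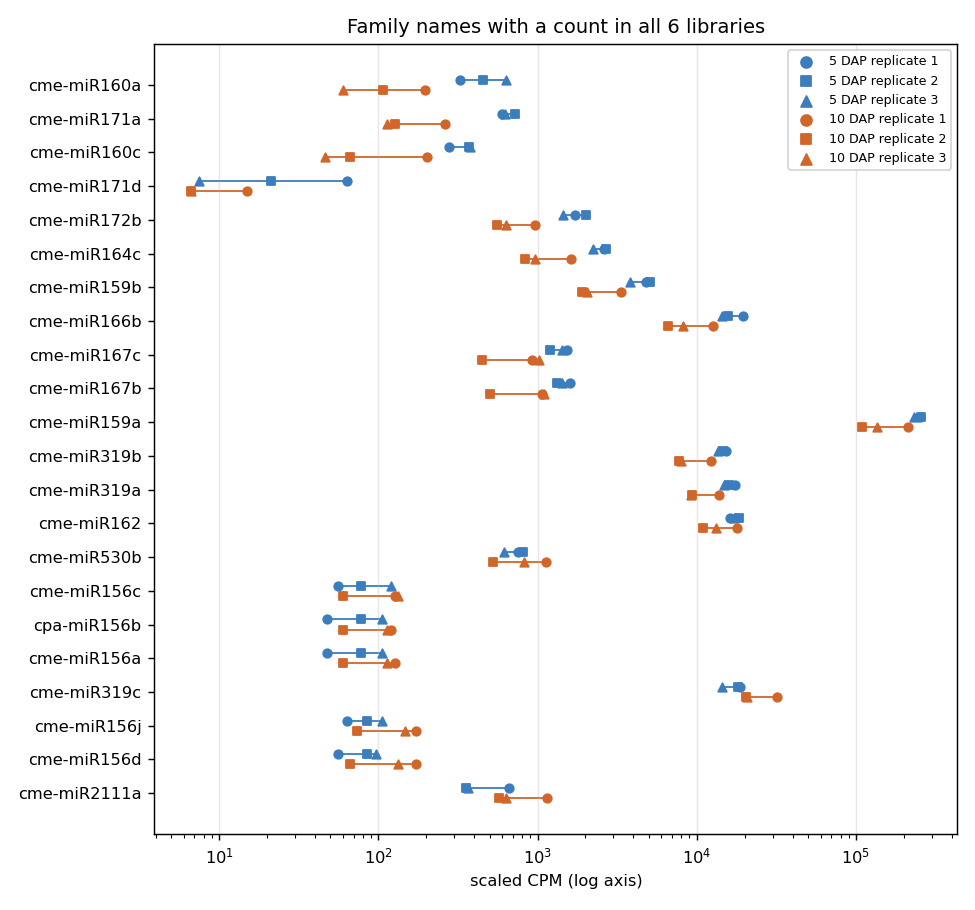
Each row is a family name with at least 1 count in all 6 libraries, and each point is the scaled CPM (log axis) of 1 library, blue for 5 DAP and orange for 10 DAP, with a line from the lowest to the highest replicate. Replicate 1 of 10 DAP (circle) is mostly the highest of the 10 DAP libraries, as for cme-miR171a at 263 beside 127 and 113.

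With counts summed over the names of a family, 5 of 13 tested families were called lower and none higher by edgeR. They were miR160 (-1.83, SE 0.47, adjusted p = 0.00700), miR171 (-1.97, SE 0.43, adjusted p = 0.00283), miR172 (-1.22), miR164 (-1.11) and miR166 (-0.81). In that fit, where the novel_miR names remain single, 40.1% of 192 features were called. The summed miR319 counts had a log2 difference of -0.06 (SE 0.29). Without replicate 2 or without replicate 3 of 10 DAP, 3 families were called, and miR164 and miR166 were not. Without replicate 1 of 5 DAP the 5 called included miR2111, higher (1.15), and not miR166.

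The counts by function below stand beside 27.5% of all tested names called lower and 11.3% called higher. The auxin list (miR160, miR167, miR390, miR393) had 4 tested names, of which 2 were lower, with a median log2 change of -1.26. The organ growth and meristem list (miR164, miR165, miR166, miR171, miR319, miR396) had 9 tested names, of which 5 were lower, with a median of -1.14. The 5 include cme-miR171c and mdm-miR171h, whose counts are equal in these 6 libraries and too few for a test in them alone. Without replicate 2 of 5 DAP, 1 of the 5, cme-miR171a, was called lower, and no name of the phase change, ripening or MYB lists was called, while the auxin list had 2 lower. The phase change list (miR156, miR157, miR172) had 1 lower of 6, the miR172 name, and a median of 0.34. The rest are miR156 names, some with nearly the same counts. Without scaling factors 2 of these, cme-miR156d and cme-miR156j, were called higher, and they have nearly the same counts. Of the 7 tested names that the ripening list (miR156, miR157, miR164, miR172, miR1917) holds, 2 were lower and the median was 0.33. Without scaling factors the same 2 miR156 names were called higher and 2 names lower. The MYB list (miR159, miR828, miR858) had 1 lower of 2 and a median of -0.81. The miRNA pathway list (miR162, miR168, miR403) and the phosphate and sulphate list (miR395, miR399, miR827, miR2111) had 1 tested name each, neither called. The copper list (miR397, miR398, miR408, miR857) and the NBS-LRR defence list (miR472, miR482, miR1507, miR2109, miR2118, miR5300) had no name in these tables. Beside these medians stands that of all tested names, -0.07.

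The deepest falls were in novel_miR names that were nearly gone at 10 DAP. novel_miR_13 had 34, 39 and 32 counts at 5 DAP and 1, 0 and 1 at 10 DAP, a ratio of scaled counts of 56.9 with an exact 95% counting interval of 15.4 to 476. novel_miR_109 had 42, 38 and 46 counts and then 3, 0 and 0, a ratio of 45.5 (interval 15.2 to 224). These intervals cover counting error only, as do all such intervals here. novel_miR_51 was the most abundant of the group, with 1755, 1327 and 1707 scaled CPM at 5 DAP and 60.2, 86.6 and 46.5 at 10 DAP, and it fell by 4.61 on the log2 scale (SE 0.39, adjusted p = 1.49e-07).

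novel_miR_27, novel_miR_100, novel_miR_19 and novel_miR_165 had nearly the same counts as each other in all 18 libraries, within 10% or 5 counts, so they may count the same reads. Each stood at 433 to 477 scaled CPM in every 5 DAP library and at 13.3 to 39.9 in every 10 DAP library. Their log2 changes were -4.35, -4.12, -4.10 and -4.08 (SE 0.40 to 0.41). novel_miR_15 went from 675, 355 and 472 to 52.6, 33.3 and 46.5 scaled CPM, a change of -3.48 (SE 0.37, adjusted p = 2.66e-06). These 8 names were called lower in every alternative.

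Among the abundant novel_miR names, falls were shallower. novel_miR_5, second in level only to cme-miR159a over the 6 libraries, stood at 65174, 83381 and 64429 scaled CPM at 5 DAP and 34554, 15573 and 23068 at 10 DAP, a log2 change of -1.54 (SE 0.37, adjusted p = 0.00423). Its share of the listed counts went from 6.05%, 7.64% and 6.18% to 3.44%, 2.04% and 2.82%. novel_miR_14 and novel_miR_60 have the same counts in every library and fell from 62275, 56304 and 63097 to 36434, 19947 and 27744 scaled CPM, a change of -1.11 (SE 0.25, adjusted p = 0.00281). novel_miR_126 and novel_miR_149, also a pair with equal counts, went from 528, 747 and 710 counts to 268, 106 and 210, a change of -1.85 (SE 0.50, adjusted p = 0.00946). In all of these the ages did not overlap and replicate 1 of 10 DAP lay nearest to the 5 DAP libraries.

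**Figure D3:**
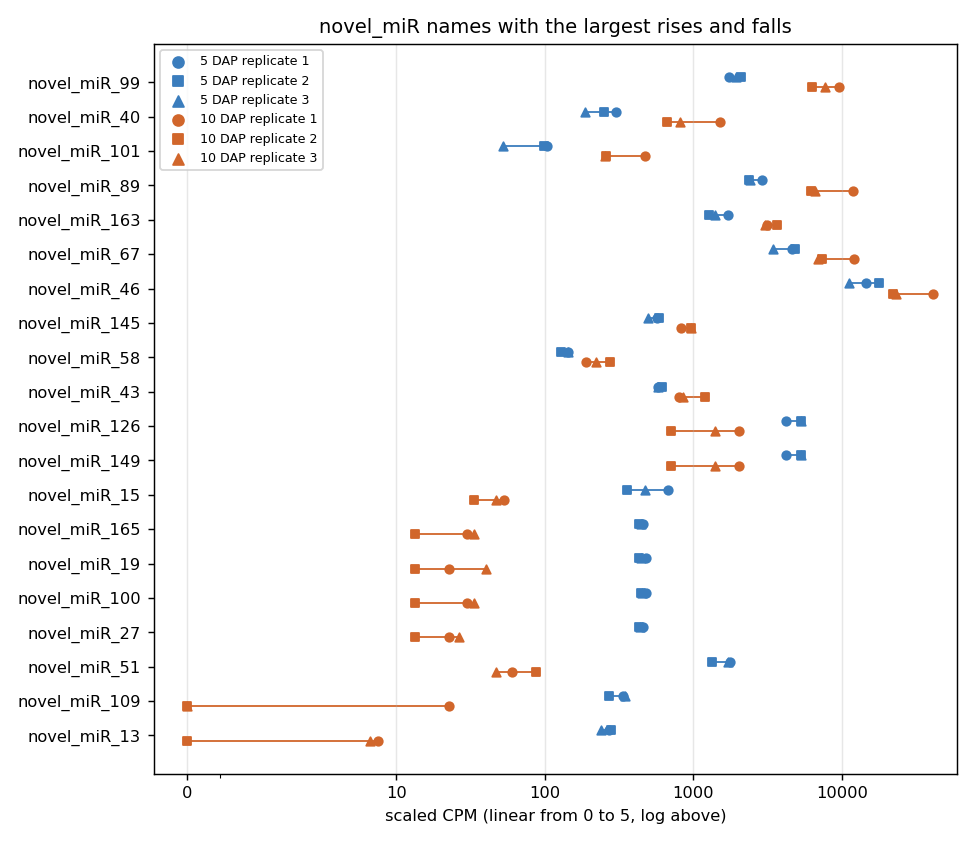
Rows are the 10 novel_miR names with the largest rises (upper rows) and the 10 with the largest falls (lower rows) among those called with no overlap between ages, and points are scaled CPM per library (linear from 0 to 5, log above). The lines span the replicates. novel_miR_13 and novel_miR_109 reach 0 in at least 1 library at 10 DAP, and novel_miR_99 is at 6292 or more in all 3. The absence of overlap was part of the rule that chose these names.

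Of the rises, all 23 were novel_miR names, and the 3 largest were about equal in size. novel_miR_99 stood at 1732, 2101 and 1939 scaled CPM at 5 DAP and 9550, 6292 and 7672 at 10 DAP, a log2 change of 2.02 (SE 0.27, adjusted p = 1.63e-05). novel_miR_40 went from 302, 248 and 187 to 1504, 659 and 817 (2.01, SE 0.32, adjusted p = 0.000102), and novel_miR_101 from 103, 99.4 and 52.4 to 474, 260 and 252 (1.93, SE 0.36, adjusted p = 0.000634). In these 3 rises replicate 1 of 10 DAP was the highest library. Over all 23 rises it was the highest of the 10 DAP libraries in 8 and the lowest in 11, and over the 56 falls the highest in 34 and the lowest in 10. Without it the 3 changes were 1.86, 1.59 and 1.58.

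novel_miR_89 rose from 2883, 2371 and 2411 to 11791, 6152 and 6596 scaled CPM (1.68, SE 0.23, adjusted p = 2.79e-05). novel_miR_163 rose from 1708, 1270 and 1407 to 3128, 3649 and 3055 (1.17, SE 0.17, adjusted p = 5.15e-05), and its 3 libraries at 10 DAP were close together. novel_miR_46 was the most abundant of the rising names, with 14608, 17666 and 11222 scaled CPM at 5 DAP and 40901, 22071 and 22982 at 10 DAP (0.98, SE 0.22, adjusted p = 0.00242), and novel_miR_67 rose by 1.03 (SE 0.20, adjusted p = 0.000884). These, with novel_miR_145 (0.74, SE 0.19) and the 3 names above, are the 8 rises that every alternative kept. novel_miR_43 (0.69, SE 0.22) lost its call without replicate 2 of 10 DAP (adjusted p = 0.121), and novel_miR_58 (0.72, SE 0.26, adjusted p = 0.0365) lost it without replicate 2 of 5 DAP and without replicate 2 or 3 of 10 DAP.

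Of the other names among the 10 most abundant, 1 was called. novel_miR_12 stood at 29546 ± 1794 and 26947 ± 931 scaled CPM (SD, n = 3 each; -0.13, SE 0.13, adjusted p = 0.408). novel_miR_121 and novel_miR_30, which have nearly the same counts, stood at 21230 ± 225 and 20802 ± 329 at 5 DAP and 25294 ± 1210 and 24939 ± 1439 at 10 DAP, with changes of 0.25 and 0.26 that were not called (adjusted p = 0.210 and 0.198), and both were called higher without scaling factors and by DESeq2. novel_miR_119 rose by 0.57 (SE 0.19, adjusted p = 0.0229) and was not called without replicate 2 or 3 of 10 DAP. The 10 most abundant names held 51.9% to 53.0% of the listed counts at 5 DAP and 40.9% to 49.2% at 10 DAP.

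All 179 novel_miR names were tested, and 23 were called higher and 47 lower by edgeR, with a median log2 change of -0.04 and, without scaling factors, 60 higher and 25 lower. Beyond the novel_miR names above, 12 were called higher, with log2 changes of 0.34 to 0.76, and 34 lower, with changes of -1.57 to -0.33. The 106 others were not called and had changes of -0.73 to 0.68. Names with nearly the same counts are not separate findings. Among names with a mean of at least 20 counts in the 18 libraries, 37 fell into 16 such sets by the tolerance above, and with each set taken once the 79 calls are 67, with 21 higher and 46 lower. Rarer names with equal counts, such as cme-miR171c and mdm-miR171h at 5 and 10 DAP, are not joined in that number.

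The 2 ages lie within a longer course, and the level of a name before 5 and after 10 DAP differed from group to group. cme-miR171a stood at 1094 ± 255 scaled CPM at 0 DAP, 645 ± 63.8 at 5 DAP, 168 ± 83.1 at 10 DAP and 33.3 ± 17.9 at 20 DAP (SD, n = 3 each), and cme-miR160a at 709 ± 256, 472 ± 156, 121 ± 69.0 and 59.5 ± 39.3 at the same ages. cme-miR164c had its lowest mean at 10 DAP, with 2509 ± 257 at 5 DAP, 1142 ± 422 at 10 DAP and 7996 ± 905 at 20 DAP. cme-miR166b did too, with 49481 ± 7304 at 0 DAP, 16519 ± 2589 at 5 DAP, 9149 ± 3131 at 10 DAP and 32473 ± 2722 at 20 DAP. novel_miR_14 had 613 ± 216 at 1 DAP, 60558 ± 3707 at 5 DAP, 28042 ± 8247 at 10 DAP and 72302 ± 24939 at 30 DAP. The ratio of cme-miR319c to cme-miR319a was 0.61 ± 0.0591 at 1 DAP, 8.16 ± 0.431 at 20 DAP and 4.01 ± 0.301 at 30 DAP.

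The contrast of 30 with 0 DAP uses none of these 6 libraries, though it comes from the same fit and the same scaling. Of the 23 names called higher at 10 DAP, 19 were also called higher at 30 than at 0 DAP (82.6%), beside 28.4% of all tested names, and these are 32.8% of the names higher at 30 DAP. Of the 56 called lower at 10 DAP, 44 were lower at 30 than at 0 DAP (78.6%), beside 39.2% of all, and these are 55.0% of the names lower at 30 DAP. These counts are a description and were not tested. The 4 names with opposite calls were cme-miR164c, novel_miR_14 and novel_miR_60, lower at 10 than at 5 DAP but higher at 30 than at 0 DAP (3.10, 7.35 and 7.35 on the log2 scale), and novel_miR_58, which was the reverse (-1.30).

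**Figure D4:**
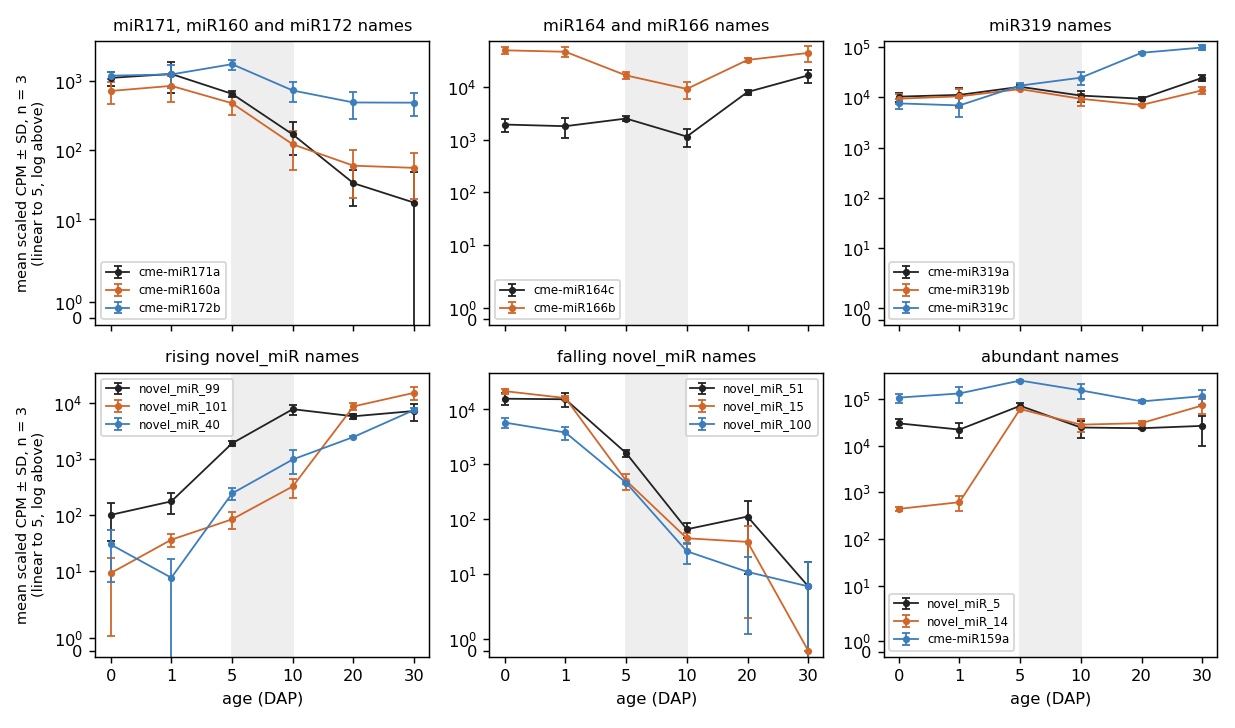
Mean scaled CPM ± SD (n = 3) of selected names at the 6 ages, with evenly spaced ages on the x axis, a y axis that is linear to 5 and log above, and the step from 5 to 10 DAP shaded. cme-miR164c and cme-miR166b have their lowest means at 10 DAP, 1142 and 9149, and the 3 falling novel_miR names start from means of 5765 to 21676 at 0 DAP. Bars that run below 0 are cut at the axis.

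**Figure D5:**
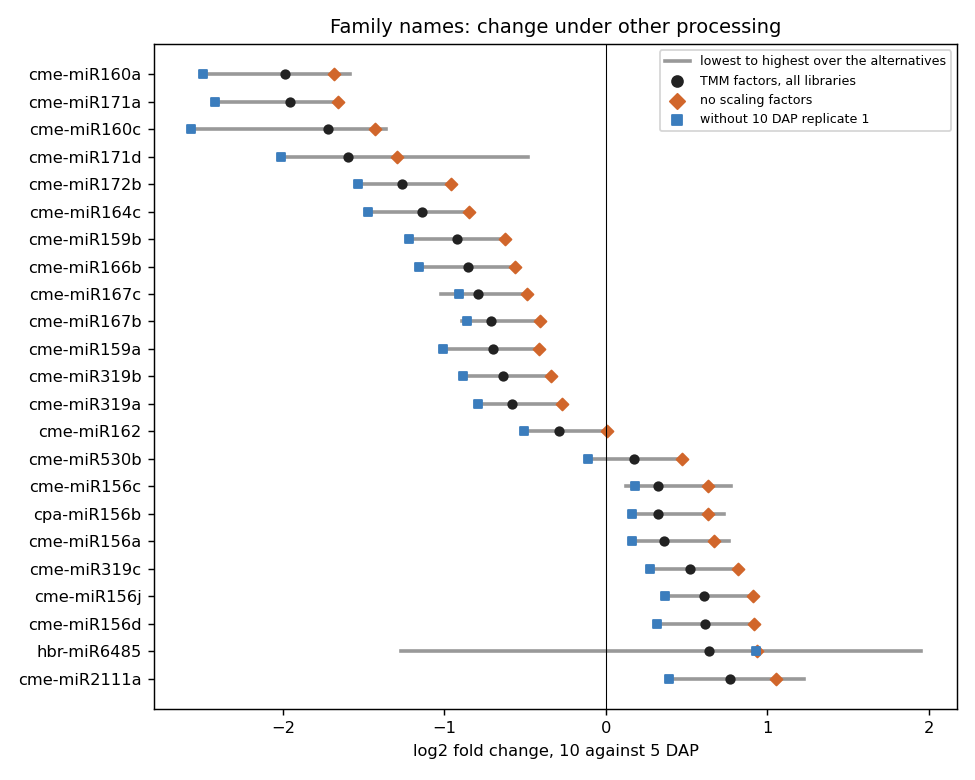
Log2 fold change between 10 and 5 DAP of each family name with a count at 10 DAP, with TMM factors (black), without scaling factors (orange diamond), without replicate 1 of 10 DAP (blue square), and the span over all alternatives (grey). The span of cme-miR171a, -2.42 to -1.66, stays below 0, and that of cme-miR162, -0.50 to 0.01, reaches it.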

How the data were processed

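Per the labels' protocols, RNA of flesh was extracted with Trizol, fragments under 100 nt were cut from a gel, and libraries were made for Illumina sequencing. Per the submitters' processing notes, fastp and BWA were used. The genome build, the miRNA reference, the counting of reads that match several names and the use of molecular identifiers remain not given in the sources used here. The deposited tables hold whole-number counts per miRNA name, not normalized by the authors, with no sequence or position. Totals are over listed names only.

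The 18 libraries of the 6 ages were fitted together with edgeR 4.0.16 (R 4.3.3, limma 3.58.1). Names were kept by filterByExpr at a minimum count of 10 (204 of 208), scaled with TMM factors, and compared with the quasi-likelihood F test, adjusted over all tested names. The SE of a log2 change was worked back from the fitted change and its F statistic, so it is not independent of the p-value. The procedure was run on simulated counts with 1 common dispersion (0.0323) and equal numbers of rises and falls at 10 DAP. That simulation had no library that stands apart and no excess of changes in 1 direction, so it does not test either case. A 95% interval of a ratio is an exact Poisson interval. The alternatives were RLE factors, no factors, DESeq2 1.42.0, no filter, a minimum count of 50, the 6 libraries alone, the replicate number as a block, names with equal counts once, and each of the 6 libraries left out. Family names, the 10 largest novel_miR rises and falls with no overlap, the 10 most abundant names and names with 3 or fewer counts at 1 age against 30 or more at the other are named by rule. Members and lists were chosen with earlier results of these data known.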

Additional observations from a re-analysis of the deposited data

How the results depend on the processing

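From 5 to 10 DAP the calls numbered 79 (23 higher, 56 lower), and over the fits with 1 library left out they ranged from 48 to 79, with 11 to 32 higher and 23 to 55 lower. The fewest higher calls came without replicate 2 of 10 DAP, and 33 and 23 lower calls were made without replicates 1 and 2 of 5 DAP. Without scaling factors 64 were higher and 34 lower, and with equal names counted once 36 and 33. Fitting the 6 libraries alone gave 37 higher, and adding a replicate block to that fit gave 38. For 30 against 0 DAP the split without factors was 31 higher and 135 lower, beside 58 and 80. Family sums called numbered 5, and 3 to 6 with 1 library left out.

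Deviations of same-numbered libraries from their age means correlated at 0.12, -0.16 and 0.47, and those of differently numbered libraries at -0.48 to 0.27. With 3 libraries at each age, these values cannot decide whether the replicate number pairs the libraries. With a replicate block over all 18 libraries 90 names were called, 26 higher and 64 lower, and family names called were 1 higher and 14 lower. The calls gained there are cme-miR159a (adjusted p = 0.0445), cme-miR167b (0.0479), cme-miR167c (0.0278), cme-miR319a (0.0451) and cme-miR319b (0.0341), all lower, and cme-miR2111a (0.0287), higher. With the block in the 6 libraries alone cme-miR159a, both miR167 names, cme-miR319a and cme-miR319b were called lower too. In that fit cme-miR319c and cme-miR2111a (adjusted p = 0.000239) were called higher. The difference in the share of family names, -5.94 percentage points, ranged from -8.41 to -4.06 with 1 library left out. With equal names once it was -7.14, the ages did not overlap, and the exact permutation p was 0.1, the smallest possible.

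Changes of sign among the names and families described above were in those not called. Of the 79 called names, 1 changed sign, novel_miR_86, picked for this after its values were seen, with -0.33 and, without factors, 0.006. Without factors, cme-miR162 (0.0087), its family sum (0.0087), novel_miR_12 (0.20) and the miR319 sum (0.20) were above 0. novel_miR_12 was at 0.0057 in the 6 libraries alone, 0.0061 there with the block and 0.027 with equal names once. With 1 library left out, log2 changes ranged from -0.16 to 0.036 for novel_miR_12, from -0.11 to 0.42 for cme-miR530b, from -0.0847 to 0.43 for its family sum, from -1.27 to 1.95 for hbr-miR6485, from -1.26 to 1.88 for its family sum and from -0.31 to 0.022 for the miR319 sum. The causes were not tested. Over all named names and families, 800 alternative values kept direction and side of the threshold, 38 gained a call, 26 lost one and 15 changed sign. hbr-miR6485 had 0, 1 and 3 counts at 5 DAP and 1, 0 and 6 at 10 DAP.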
